A study of Mus musculus with 12 samples.

Results

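The nuclear-encoded subunits of the mitochondrial respiratory chain were followed as 1 set of genes across adipocytes and stromal vascular cells of 2 adipose depots. Members were taken by gene name: the Nduf genes of complex I, the Sdh genes of complex II, the Uqcr genes of complex III, the Cox4 to Cox8 genes of complex IV and the Atp5 genes of complex V, without Cox8b and Cox7a1. This gave 80 genes of the 24890 features in the tables, with 36 in complex I, 4 in complex II, 8 in complex III, 15 in complex IV and 17 in complex V. Each of the 12 libraries was made from untreated C57BL/6J males, 18 weeks old and fed normal chow. Epididymal (EAT) and inguinal (IAT) adipose tissue had each been digested with collagenase I into adipocytes and stromal vascular cells (SVCs), and each of the 4 groups held 3 libraries. The SVC fraction is the mixture of all non-adipocyte cells, and the labels do not say whether a library came from 1 mouse or from pooled mice, so the p-values measure only the spread between libraries. The question put to the data was whether the transcripts of this machinery differ between the fractions, between the depots, and between the fractions of the 2 depots.

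The respiratory chain passes electrons from NADH through complex I, or from succinate through complex II, to ubiquinone, then through complex III and cytochrome c to complex IV, which reduces oxygen. The proton gradient built on the way drives complex V, the ATP synthase. Most subunits are encoded in the nucleus and imported into mitochondria, while a small core is encoded by mitochondrial DNA and was not analysed here. In fat, oxidative capacity is known to be low in white adipocytes and high in brown and beige adipocytes, and the inguinal depot is known as the more prone to browning.

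Values are the deposited FPKM (fragments per kilobase of transcript, scaled to the mapped fragments of the library), and differences are on the log2(FPKM + 1) scale with their standard error (SE). The tables give no read counts, so the depth behind a value is known only through the deposited confidence bounds, whose half-width for the median member was 3.55% to 7.01% of the value and which cover counting error only. A total of 78 members reached 1 FPKM in at least 3 libraries and were tested with limma. The other 2, Cox7b2 and Cox8c, isoforms of complex IV subunits, were listed at 0 in all 9 libraries outside the EAT SVC group and reached at most 0.118 and 0.462 FPKM in it. Adipocyte and SVC markers went with the labels: all 8 adipocyte markers were higher in the adipocyte fraction of both depots, and all 6 fibroblast and progenitor markers were lower there.

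A single library stands apart for these genes. In EAT adipocyte replicate 1, the median member lay 0.56 log2 units above the mean of replicates 2 and 3, while the median of all features tested lay at -0.01. The shift moved with transcript length, and most members are short, with a median transcript of 731 nt. For members under 600 nt the median shift was 0.66, against 0.49 for all features of that length. For members of 1000 nt or more it was 0.41, against -0.03. That class of features includes 5219 of 3000 nt or more, a range with 0 members. From 1000 to 1500 nt the medians were 0.50 for members and 0.27 for features, and from 1500 to 3000 nt 0.21 and 0.04. The main counts of members that use this library are therefore given with and without it. Counts of markers and of other gene lists are with all libraries only. Leaving it out lowered the difference between adipocytes and SVCs in EAT for 72 of 78 members, by a median of -0.19 and at most -0.29, and raised the depot difference in adipocytes for the same number. Values of single members in EAT are with all libraries unless stated otherwise.

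**Figure D1:**
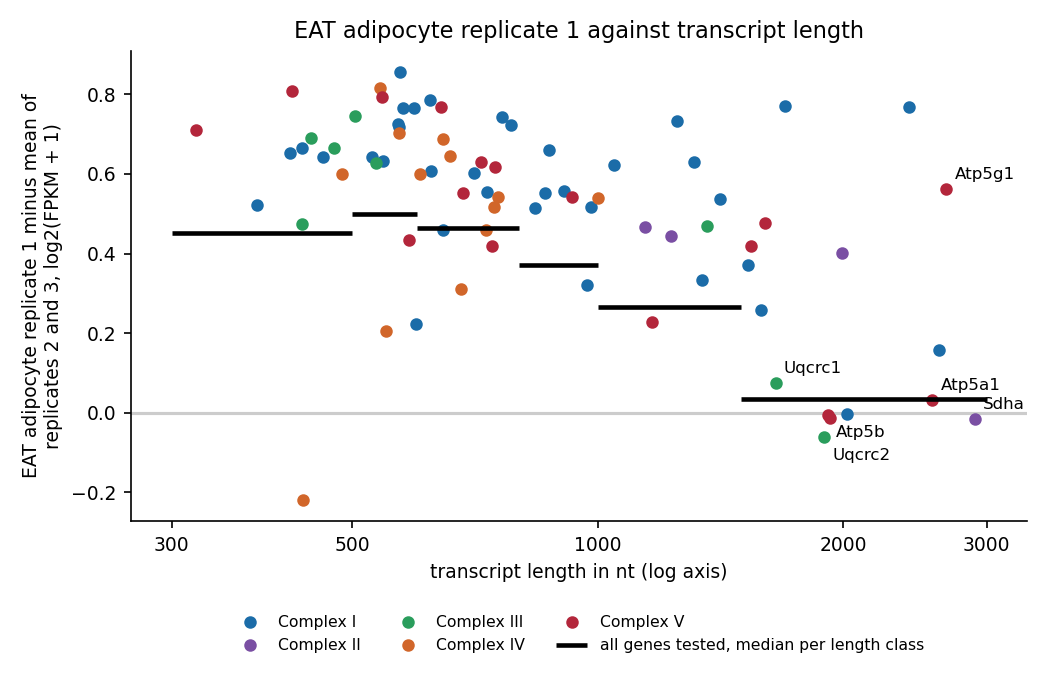
Difference between EAT adipocyte replicate 1 and the mean of EAT adipocyte replicates 2 and 3 in log2(FPKM + 1), against transcript length in nt on a log axis, with 1 point per tested member coloured by complex and black bars for the median of all features tested in each length class. Short members lie mostly between 0.4 and 0.8, and several long ones, such as Sdha (-0.02), Uqcrc2 (-0.06), Uqcrc1 (0.07) and Atp5a1 (0.03), lie near 0.

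The genes of the ATP synthase c subunit are a case of members that part from each other, and their sequences are shown first because they bear on how the 3 genes can be told apart. The c subunit forms the rotating proton-carrying ring of complex V, and the same mature protein is known to be made from Atp5g1, Atp5g2 and Atp5g3, which differ in their import sequences. The last 225 coding bases before the stop codon, which hold this mature protein, are printed from GENCODE transcripts, with capitals at the 57 positions where the 3 genes are not all alike.
Atp5g1: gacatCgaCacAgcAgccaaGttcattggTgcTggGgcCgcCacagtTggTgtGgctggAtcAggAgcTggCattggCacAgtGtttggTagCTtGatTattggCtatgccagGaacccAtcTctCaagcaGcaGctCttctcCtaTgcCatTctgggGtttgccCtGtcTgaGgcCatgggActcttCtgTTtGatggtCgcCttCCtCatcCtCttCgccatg
Atp5g2: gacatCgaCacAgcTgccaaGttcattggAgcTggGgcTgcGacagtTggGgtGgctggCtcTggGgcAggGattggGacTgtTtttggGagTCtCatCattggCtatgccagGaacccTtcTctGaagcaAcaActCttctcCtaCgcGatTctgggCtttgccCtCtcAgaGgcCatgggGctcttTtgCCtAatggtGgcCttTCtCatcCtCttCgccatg
Atp5g3: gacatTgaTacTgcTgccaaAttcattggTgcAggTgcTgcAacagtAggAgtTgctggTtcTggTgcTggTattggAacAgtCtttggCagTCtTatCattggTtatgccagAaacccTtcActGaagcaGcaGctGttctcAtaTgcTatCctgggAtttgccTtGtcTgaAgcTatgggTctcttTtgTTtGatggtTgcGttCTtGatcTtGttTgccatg
Atp5g1 and Atp5g2 were identical at 84.9% of these bases, Atp5g1 and Atp5g3 at 80.0%, and Atp5g2 and Atp5g3 at 78.7%. Of the 34 differences between Atp5g1 and Atp5g2, 32 fell on the third base of a codon. The longest identical run was 20 bases for Atp5g1 and Atp5g2, 11 for Atp5g1 and Atp5g3 and 8 for Atp5g2 and Atp5g3. The genes lie apart in the genome (mm10, the build of the tables), Atp5g1 at chr11:96072793-96075694, Atp5g2 at chr15:102662868-102671047 and Atp5g3 at chr2:73908447-73911326.

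The 250 bases upstream of each of these start sites, from RefSeq on GRCm38.p6, are shown because the 3 genes did not move together. Capitals mark matches to motifs searched on both strands: GCGCA followed by any base and GCGC, and the overlapping shorter TGCGCA, for NRF1, CCGGAAG for GABPA and other ETS factors, TCAAGGTCA for the estrogen-related receptors (ERR), and AAGATGGC for YY1.
Atp5g1 (minus strand, chr11:96075632-96075881): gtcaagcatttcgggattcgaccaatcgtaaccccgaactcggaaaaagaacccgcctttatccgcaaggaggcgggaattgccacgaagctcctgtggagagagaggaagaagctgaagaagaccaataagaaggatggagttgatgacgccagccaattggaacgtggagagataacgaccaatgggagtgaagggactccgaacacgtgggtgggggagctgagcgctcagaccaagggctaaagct
Atp5g2 (minus strand, chr15:102671048-102671297): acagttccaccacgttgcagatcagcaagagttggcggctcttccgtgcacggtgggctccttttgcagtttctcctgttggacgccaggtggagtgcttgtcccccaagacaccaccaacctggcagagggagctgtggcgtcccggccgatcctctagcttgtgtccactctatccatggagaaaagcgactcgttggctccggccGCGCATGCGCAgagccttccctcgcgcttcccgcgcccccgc
Atp5g3 (minus strand, chr2:73911327-73911576): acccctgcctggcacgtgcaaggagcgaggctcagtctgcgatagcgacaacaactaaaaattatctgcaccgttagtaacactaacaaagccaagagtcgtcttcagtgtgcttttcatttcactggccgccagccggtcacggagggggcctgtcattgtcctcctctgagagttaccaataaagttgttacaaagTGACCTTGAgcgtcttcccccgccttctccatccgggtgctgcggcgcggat
The Atp5g3 window held 1 match to the ERR motif, read on the reverse strand, the Atp5g2 window held overlapping NRF1 matches, and none of these letters occurred in the Atp5g1 window. A RefSeq promoter was found for 66 of the 80 members. The longer NRF1 motif occurred upstream of 13 of these 66 (19.7%), against 4.23% of the 27025 genes in the table. TGCGCA occurred in 21.2% of members against 7.36% of genes, and CCGGAAG in 18.2% against 7.83%. The ERR motif occurred upstream of 1 member, Atp5g3 (1.52%, against 0.422% of genes), and AAGATGGC upstream of 2 (3.03% against 1.83%). A match describes letters in this window and is not evidence of binding.

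Transcripts of the subunits were higher in adipocytes than in SVCs in both depots, for nearly the whole set. The 80 members took 4.65%, 3.81% and 3.91% of the summed FPKM in the 3 EAT adipocyte libraries and 5.39%, 5.19% and 5.05% in the IAT adipocyte libraries, against 1.40% to 1.51% in the 6 SVC libraries. In EAT, 73 of 78 members were higher in adipocytes and 3 were lower, with a median difference of 1.40. Over all features tested, 31.1% were called higher and 52.7% lower, with a median of -0.31. In IAT, 73 members were higher and 4 lower, with a median of 1.69, beside 29.8% of all features called higher, 53.9% called lower and a median of -0.34. The 73 were the same genes in both depots, and without EAT adipocyte replicate 1 the number called higher was again 73 in each depot, beside 32.0% of all features in EAT and 31.3% in IAT. In bulk libraries of mixed cells, fewer cells of a type and less RNA per cell cannot be told apart.

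By complex, the median difference between adipocytes and SVCs in EAT was 1.46 for complex I, 1.64 for complex II, 1.47 for complex III, 1.29 for complex IV and 1.08 for complex V. Without EAT adipocyte replicate 1 these medians were 1.27, 1.58, 1.47, 1.02 and 0.82. In IAT it was 1.82, 1.93, 1.94, 1.62 and 1.35 in the same order. Complex V had the smallest median in both depots, also without that library. All members of complexes I, II and III were higher in adipocytes of both depots, and every exception lay in complexes IV and V.

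**Figure D2:**
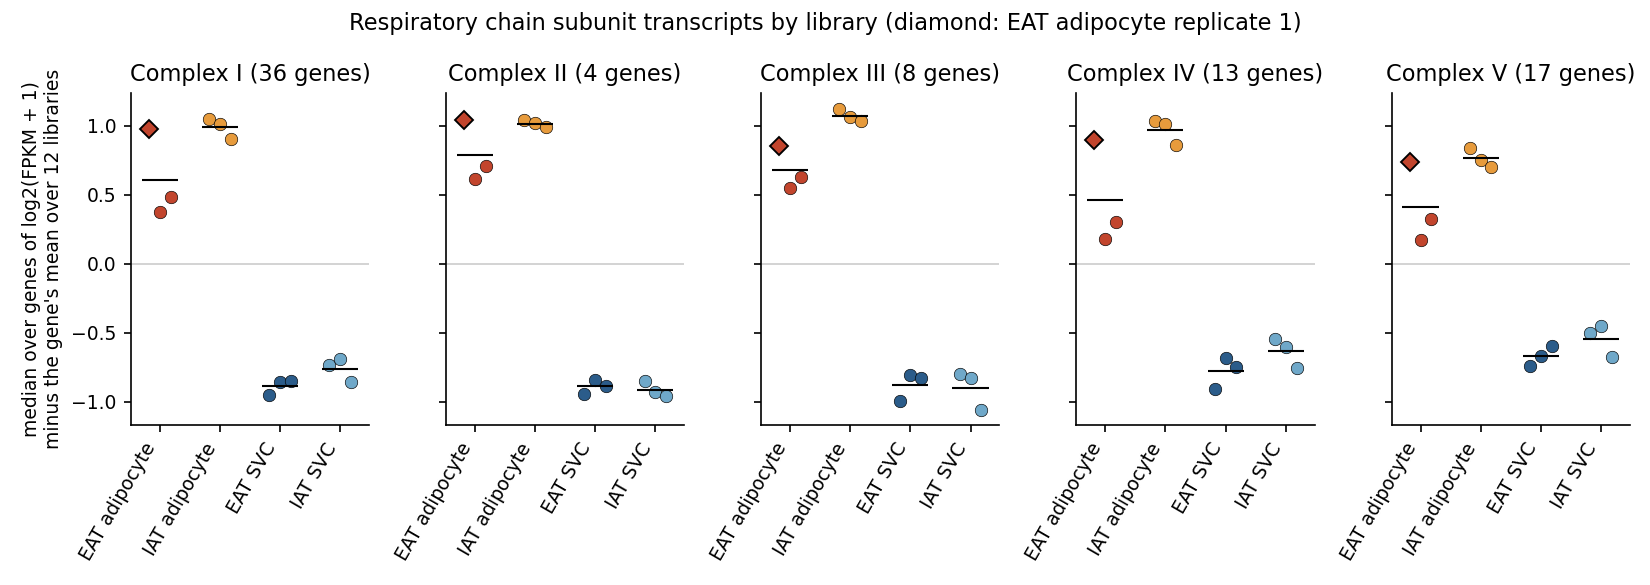
Median over the members of each complex of log2(FPKM + 1) minus the gene's mean over the 12 libraries, with 1 point per library, the group mean as a bar and EAT adipocyte replicate 1 as a diamond. All 6 adipocyte libraries lie above 0 and all 6 SVC libraries below 0 in every complex. The diamond lies near the IAT adipocyte libraries in complexes I, II, IV and V. In complex III it lies at 0.85, below the IAT adipocyte libraries, which are at 1.03 or more.

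In complex I, the catalytic core rose with the accessory subunits. Ndufv1, the subunit that binds NADH, stood at 136, 103 and 107 FPKM in EAT adipocytes and 135, 138 and 131 in IAT adipocytes, against 33.4, 35.8 and 35.0 in EAT SVCs and 38.2, 33.8 and 33.0 in IAT SVCs. Every adipocyte library was above every SVC library, and the differences were 1.70 ± 0.10 in EAT (limma, adjusted p = 3.38e-09) and 1.92 ± 0.10 in IAT (limma, adjusted p = 9.98e-10). Ndufs1, the largest core subunit, differed by 1.81 ± 0.06 in EAT and 1.88 ± 0.06 in IAT. The largest difference of complex I in both depots was in Ndufb9, an accessory subunit. Its values were 474, 310 and 314 FPKM in EAT adipocytes and 63.7, 80.9 and 76.3 in EAT SVCs, and 477, 470 and 440 against 89.6, 86.7 and 74.0 in IAT. This gave 2.28 ± 0.15 in EAT and 2.46 ± 0.15 in IAT, a 4.85-fold and a 5.50-fold difference on the log2(FPKM + 1) scale. Ndufa4, named with complex I and now counted as a subunit of cytochrome oxidase, differed by 2.17 ± 0.15 and 2.19 ± 0.15. At the low end of complex I stood Ndufa6 in EAT (0.58 ± 0.14) and Ndufb11 in IAT (0.83 ± 0.13), both accessory subunits and both called higher.

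Complex II, which is also an enzyme of the tricarboxylic acid cycle, has 4 subunits, all nuclear-encoded. Sdha, the flavoprotein that oxidises succinate (chr13:74322255-74350240), was measured at 174, 178 and 173 FPKM in EAT adipocytes, 227, 227 and 229 in IAT adipocytes, 52.2, 52.8 and 54.0 in EAT SVCs and 53.2, 47.4 and 51.5 in IAT SVCs. The 4 groups therefore fell on 3 levels, with both SVC groups together at the bottom and IAT adipocytes above EAT adipocytes without overlap. Sdhb, the iron-sulfur subunit (chr4:140961271-140979192), differed by 1.86 ± 0.12 in EAT and 2.35 ± 0.12 in IAT, the largest value of the complex in both. Without EAT adipocyte replicate 1 the EAT values were 1.70 ± 0.08 for Sdhb and 1.71 ± 0.06 for Sdha. The membrane anchors Sdhc and Sdhd differed by 1.58 ± 0.12 and 1.51 ± 0.11 in EAT and by 1.70 ± 0.12 and 1.62 ± 0.11 in IAT.

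In complex III, the Rieske iron-sulfur protein Uqcrfs1 had the largest difference in EAT, 2.04 ± 0.12, and the small subunit Uqcr11 the largest in IAT, 2.42 ± 0.18. Uqcrfs1 was listed at 181, 128 and 133 FPKM in EAT adipocytes against 33.4, 34.7 and 35.9 in EAT SVCs, and at 174, 178 and 166 against 41.1, 40.3 and 33.5 in IAT. The core proteins Uqcrc1 and Uqcrc2 differed by 1.44 ± 0.08 and 1.50 ± 0.07 in EAT and by 1.96 ± 0.08 and 1.81 ± 0.07 in IAT. The smallest value was that of the hinge protein Uqcrh, with 0.78 ± 0.16 in EAT and 0.80 ± 0.16 in IAT.

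Among the complex IV members, the ubiquitous isoforms were high in adipocytes, and Cox4i2, Cox6a2 and Cox6b2 were not. Cox7a1 and Cox8b, isoforms that the set leaves out, were higher in adipocytes of both depots. Cox8a, a small membrane subunit, had the highest mean FPKM of all members in both adipocyte groups, 1055 ± 91.5 (SD, n = 3) in EAT and 1397 ± 47.1 in IAT, against 275 ± 28.7 and 285 ± 26.4 in the SVCs. Its difference was 1.94 ± 0.11 in EAT and 2.29 ± 0.11 in IAT. Cox4i1, Cox5a, Cox6a1 and Cox7a2 differed by 1.33 ± 0.14, 1.18 ± 0.16, 1.50 ± 0.17 and 1.34 ± 0.15 in EAT, and by 1.62 ± 0.14, 1.45 ± 0.16, 1.83 ± 0.17 and 1.64 ± 0.15 in IAT.

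The 3 complex IV members that were lower in adipocytes were Cox4i2, Cox6a2 and Cox6b2, in both depots. Cox6a2 was at 3.10 FPKM or less in every library, and in EAT only SVC replicate 1 reached 1 FPKM. Its differences were -0.63 ± 0.20 in EAT (limma, adjusted p = 0.0098) and -1.65 ± 0.20 in IAT (limma, adjusted p = 4.6e-06). Cox4i2, the isoform of subunit 4 known from lung and from cells in low oxygen (chr2:152754173-152765037), stood at 19.5, 18.0 and 18.3 FPKM in EAT SVCs and 19.0, 14.5 and 14.4 in IAT SVCs. In adipocytes it was at 4.48, 2.37 and 3.72 in EAT and 3.52, 2.46 and 3.18 in IAT, below every SVC library. The differences were -2.14 ± 0.16 (limma, adjusted p = 5.11e-08) and -2.07 ± 0.16 (limma, adjusted p = 7.42e-08). Of the summed FPKM of Cox4i1 and Cox4i2, Cox4i2 made up 6.57% ± 0.73 (SD, n = 3) in EAT SVCs and 5.20% ± 0.49 in IAT SVCs, and 0.513% ± 0.104 and 0.341% ± 0.062 in EAT and IAT adipocytes. The Cox4i2 mean in adipocytes was 19.0% of that in SVCs in EAT and 19.1% in IAT. Beside it, the median of 5 endothelial markers in adipocytes was 17.0% and 16.4% of their SVC level, that of 4 mural cell markers 45.2% and 17.2%, and that of 5 macrophage markers 12.6% and 3.57%. The mural markers did not go together, with 7.02% to 117% in EAT and 3.11% to 347% in IAT. In IAT, 1 of them was called higher in adipocytes and 3 lower. None of these 14 markers was at 0 throughout a group, and the part of remaining vascular cells in the adipocyte value of Cox4i2 was not tested.

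Cox6b2, an isoform known from testis, was low everywhere, with 0.928, 1.64 and 0.906 FPKM in EAT adipocytes, 2.83, 1.68 and 1.13 in IAT adipocytes, 4.39, 7.87 and 7.11 in EAT SVCs and 4.96, 4.81 and 3.13 in IAT SVCs. The fraction difference was -1.77 ± 0.24 in EAT (limma, adjusted p = 1.29e-05) and -0.90 ± 0.24 in IAT (limma, adjusted p = 0.00328). The difference between these 2 values did not pass the test (0.87 ± 0.34, limma, adjusted p = 0.0661).

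**Figure D3:**
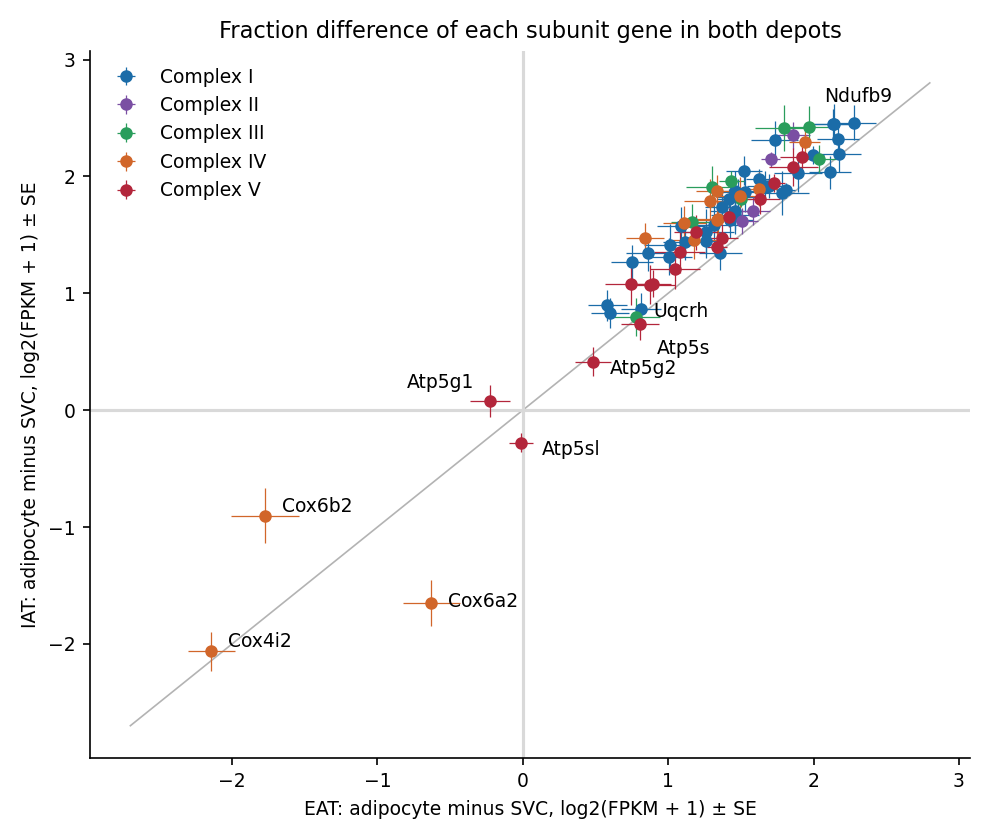
Adipocyte minus SVC difference in log2(FPKM + 1) with its SE for each of the 78 tested members, EAT on the horizontal and IAT on the vertical axis, coloured by complex, with a line of equal values. A group of 73 members lies above 0 on both axes, and Cox4i2, Cox6b2 and Cox6a2 lie below 0 on both.

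In complex V, the catalytic head was high in adipocytes. Atp5b, the beta subunit that carries the catalytic site, stood at 896, 881 and 917 FPKM in EAT adipocytes, 1187, 1127 and 1144 in IAT adipocytes, 263, 273 and 275 in EAT SVCs and 311, 298 and 290 in IAT SVCs. The 3 replicates lay close together in each group, EAT adipocyte replicate 1 included, and the fraction differences were 1.73 ± 0.08 and 1.94 ± 0.08. Atp5a1, the alpha subunit, differed by 1.33 ± 0.07 and 1.40 ± 0.07. Atp5g3 had the largest fraction difference of complex V, 1.92 ± 0.15 in EAT and 2.17 ± 0.15 in IAT, although without EAT adipocyte replicate 1 it was 1.71 ± 0.09 in EAT, beside 1.73 ± 0.07 for Atp5b.

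The 3 c subunit genes did not follow one another. Atp5g3 was listed at 918, 578 and 609 FPKM in EAT adipocytes, 918, 865 and 793 in IAT adipocytes, 169, 177 and 197 in EAT SVCs and 200, 195 and 176 in IAT SVCs. Atp5g2 rose by less, from 160, 174 and 174 FPKM in EAT SVCs to 290, 200 and 229 in EAT adipocytes, and from 209, 209 and 175 in IAT SVCs to 281, 266 and 243 in IAT adipocytes. Its differences were 0.48 ± 0.13 (limma, adjusted p = 0.00314) and 0.41 ± 0.13 (limma, adjusted p = 0.00820). Atp5g1 was at 79.3, 51.2 and 55.7 FPKM in EAT adipocytes, 73.2, 69.6 and 63.2 in IAT adipocytes, 70.0, 72.5 and 71.6 in EAT SVCs and 69.4, 68.5 and 57.0 in IAT SVCs, with the fractions overlapping in both depots. Its difference did not pass the test in EAT (-0.22 ± 0.14, limma, adjusted p = 0.146) or IAT (0.08 ± 0.14, limma, adjusted p = 0.589). Without EAT adipocyte replicate 1, Atp5g1 was lower in EAT adipocytes, by -0.41 ± 0.09 (limma, adjusted p = 7.92e-04). With all libraries and the length trend removed the value was 0.10, and with median-of-ratios scaling 0.16, neither past the test, so the direction of Atp5g1 in EAT depends on the processing. With that library left out as well, the same alternatives gave -0.11 and -0.05, and the call was lost. The length used for Atp5g1 was 2676 nt, and whether the transcript expressed here has that length was not tested.

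As a share of the summed FPKM of the 3 genes, Atp5g3 made up 68.1% to 72.2% in the 6 adipocyte libraries and 41.3% to 44.5% in the 6 SVC libraries. Atp5g1 made up 5.75% to 6.23% in adipocytes and 14.0% to 17.6% in SVCs, and Atp5g2 22.1% to 25.7% and 39.4% to 44.2%. These shares did not overlap between fractions, and EAT adipocyte replicate 1, at 71.3% for Atp5g3, lay inside the range of the other adipocyte libraries. Their sum was 1003 ± 248 FPKM (SD, n = 3) in EAT adipocytes, 1191 ± 86.8 in IAT adipocytes, 422 ± 22.1 in EAT SVCs and 453 ± 38.8 in IAT SVCs. The 57 positions at which the 3 genes are not all alike are spread along the stretch printed above, and the rest of the transcripts was not compared. How Cufflinks divided reads that match more than 1 of the genes is not given in the sources used here.

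**Figure D4:**
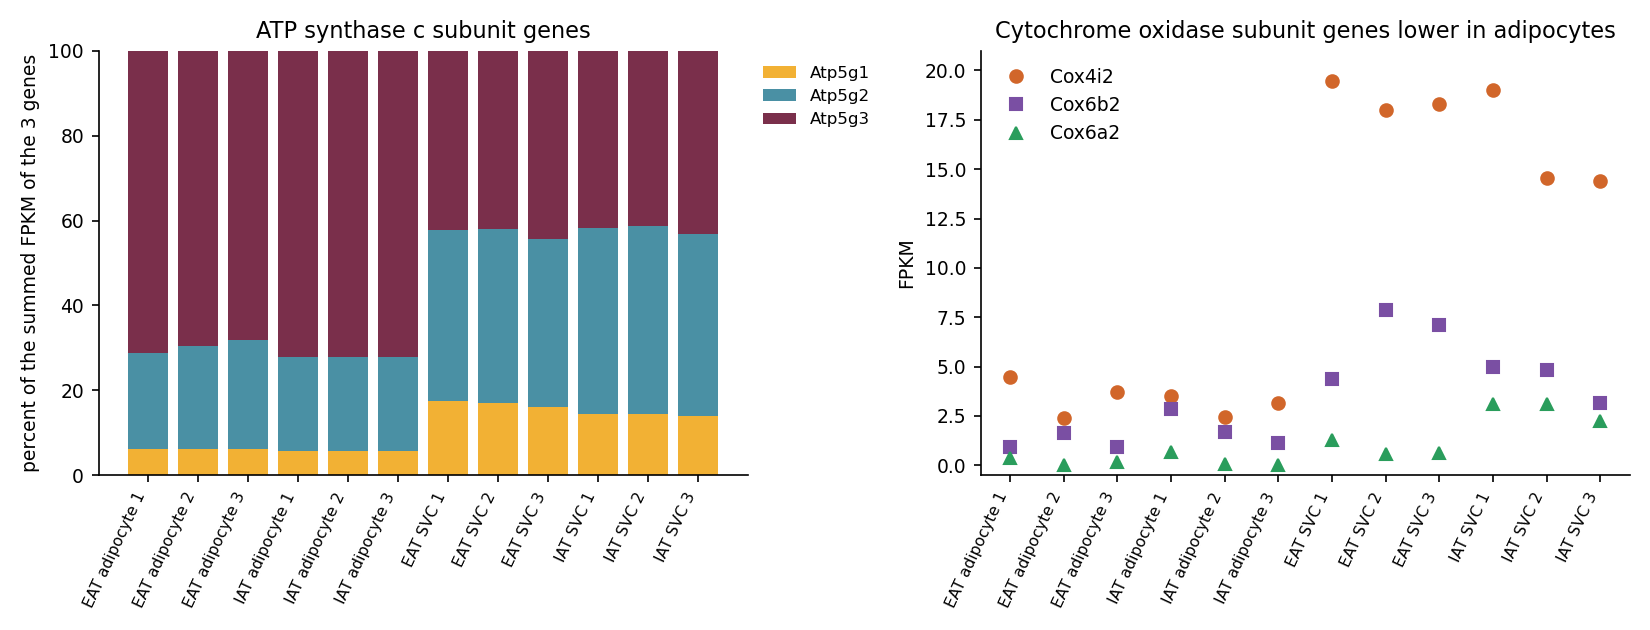
Left, percent of the summed FPKM of Atp5g1, Atp5g2 and Atp5g3 in each of the 12 libraries. Right, FPKM of Cox4i2, Cox6b2 and Cox6a2 in the same libraries. Atp5g3 takes 68.1% or more in each adipocyte library and 44.5% or less in each SVC library, and Cox4i2 is at 14.4 FPKM or more in SVCs and 4.48 or less in adipocytes.

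Atp5sl, named for its likeness to an ATP synthase factor and known as an assembly factor of complex I, was the other exception. It stood at 7.32, 7.06 and 7.73 FPKM in EAT adipocytes, 8.39, 8.94 and 8.16 in IAT adipocytes, 7.17, 7.42 and 7.70 in EAT SVCs and 9.99, 12.0 and 9.70 in IAT SVCs. It was called lower in IAT adipocytes, by -0.28 ± 0.08 (limma, adjusted p = 0.00624). The value in EAT was -0.01 ± 0.08 (limma, adjusted p = 0.902). With median-of-ratios scaling, which moves the median of all features in these contrasts close to 0, the differences became 0.11 in IAT and 0.33 in EAT, so the direction of Atp5sl depends on the scaling.

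Between depots, the subunits were higher in IAT than in EAT adipocytes, in a number that depended on EAT adipocyte replicate 1. In all 12 libraries, 33 of 78 members were called higher in IAT adipocytes and 0 lower (limma; at an unadjusted p under 0.05 these were 52 and 0), with a median difference of 0.37. Over all features tested, 10.3% were called higher and 27.3% lower, with a median of -0.10. Without EAT adipocyte replicate 1, 72 members were higher and 0 lower, with a median of 0.54, beside 14.7% of all features called higher, 34.8% called lower and a median of -0.10. The 33 members were among the 72. With the trend of each library on transcript length removed and all 12 libraries kept, 57 members were higher, beside 17.0% of all features. Leaving out another library lowered the number, to 17 without EAT adipocyte replicate 2, 16 without replicate 3, 17 without IAT adipocyte replicate 1 and 19 without replicate 2. The depot and fraction comparisons share libraries, so they are not independent of each other.

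Markers of other cells moved with this comparison. All 5 macrophage markers were lower in IAT than in EAT adipocytes, at 15.4 to 20.2 FPKM in sum against 68.3 to 84.8, and so were all 4 mesothelial markers, at 0.0859 to 0.0952 against 15.4 to 17.2, with 1 of them at 0 throughout IAT adipocytes. All 7 tested brown and beige markers, a list that holds Cox8b and Cox7a1, were higher, at 303 to 349 FPKM in sum against 37.6 to 63.2. Of the 9 on that list, only these 7 passed the filter on low values. A marker can pass it through IAT adipocytes alone, where these are high, so this count carries that condition. Of 8 adipocyte markers, 0 were higher in IAT than in EAT adipocytes and 5 were lower. The part of the cells of all these markers in the subunit values was not tested.

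The higher members were spread over all complexes. They were 15 of 36 in complex I, 2 of 4 in complex II, 4 of 8 in complex III, 7 of 13 in complex IV and 5 of 17 in complex V, and without EAT adipocyte replicate 1 they were 36, 4, 8, 10 and 14. Median differences were 0.36, 0.25, 0.43, 0.42 and 0.32 in that order, and 0.56, 0.31, 0.66, 0.60 and 0.44 without that library. By transcript length, the median without it was 0.65 for members under 600 nt, 0.60 from 600 to 1000 nt and 0.37 for longer members. For all features the corresponding medians were 0.19, 0.13 and -0.13, so the values fell with length in the members and in the features alike. The longest class of features includes those of 3000 nt or more, a range with 0 members, so its median is not at like lengths.

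Members whose values in EAT adipocyte replicate 1 lay close to the other 2 EAT libraries had nearly the same depot difference with and without it. For Sdha the difference was 0.38 ± 0.06 with all libraries (limma, adjusted p = 6.17e-04) and 0.37 ± 0.06 without (limma, adjusted p = 3.53e-04). Uqcrc2, a core protein of complex III, was at 115, 121 and 119 FPKM in EAT adipocytes and 162, 153 and 159 in IAT adipocytes, a difference of 0.41 ± 0.07 (limma, adjusted p = 5.00e-04) and of 0.39 ± 0.07 without replicate 1. Uqcrc1 was at 161, 149 and 156 FPKM against 206, 202 and 199, a difference of 0.38 ± 0.08 (limma, adjusted p = 0.00420) and of 0.40 ± 0.09 without replicate 1. Atp5b differed by 0.36 ± 0.08 (limma, adjusted p = 0.00317), and by 0.36 ± 0.07 without replicate 1. With all libraries this was the largest difference of complex V with groups that did not overlap. In each of these 4 genes, every IAT adipocyte library lay above every EAT adipocyte library. Atp5a1, as steady across replicates, differed by only 0.12 ± 0.07, which did not pass the test (limma, adjusted p = 0.199), nor did it without replicate 1 (0.13 ± 0.06, limma, adjusted p = 0.103).

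In other members EAT adipocyte replicate 1 stood above the other 2 EAT libraries. Ndufa1, an accessory subunit of complex I, was at 181, 110 and 120 FPKM in EAT adipocytes and 214, 204 and 187 in IAT adipocytes. Its difference was 0.59 ± 0.15 (limma, adjusted p = 0.00873) and rose to 0.80 ± 0.09 without EAT adipocyte replicate 1. Cox7b, a small subunit of complex IV, stood at 122, 80.4 and 87.2 FPKM against 150, 152 and 135, a difference of 0.61 ± 0.13 (limma, adjusted p = 0.00313) and of 0.79 ± 0.08 without that library. Sdhb was at 238, 167 and 177 against 268, 265 and 249, and Uqcr10, a small subunit of complex III, at 302, 210 and 224 against 388, 359 and 324. Their differences were 0.44 ± 0.12 (limma, adjusted p = 0.0114) and 0.55 ± 0.18 (limma, adjusted p = 0.0259), and 0.60 ± 0.08 and 0.71 ± 0.16 without that library. The transcripts of Ndufa1 and Uqcr10 are short, at 419 and 434 nt, and those of Cox7b and Sdhb are 1001 and 1142 nt. In all 4 genes the EAT library nearest to the IAT libraries was replicate 1.

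Some members named above did not pass the test with all libraries and passed it without that library. Ndufv1 went from 0.23 ± 0.10 to 0.35 ± 0.07, Ndufa4 from 0.21 ± 0.15 to 0.42 ± 0.09, Uqcrfs1 from 0.25 ± 0.12 to 0.40 ± 0.08 and Atp5g3 from 0.32 ± 0.15 to 0.53 ± 0.09. The 6 members not called in either case were Cox4i2, Cox6a2 and Cox6b2 of complex IV and Atp5a1, Atp5s and Atp5sl of complex V.

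**Figure D5:**
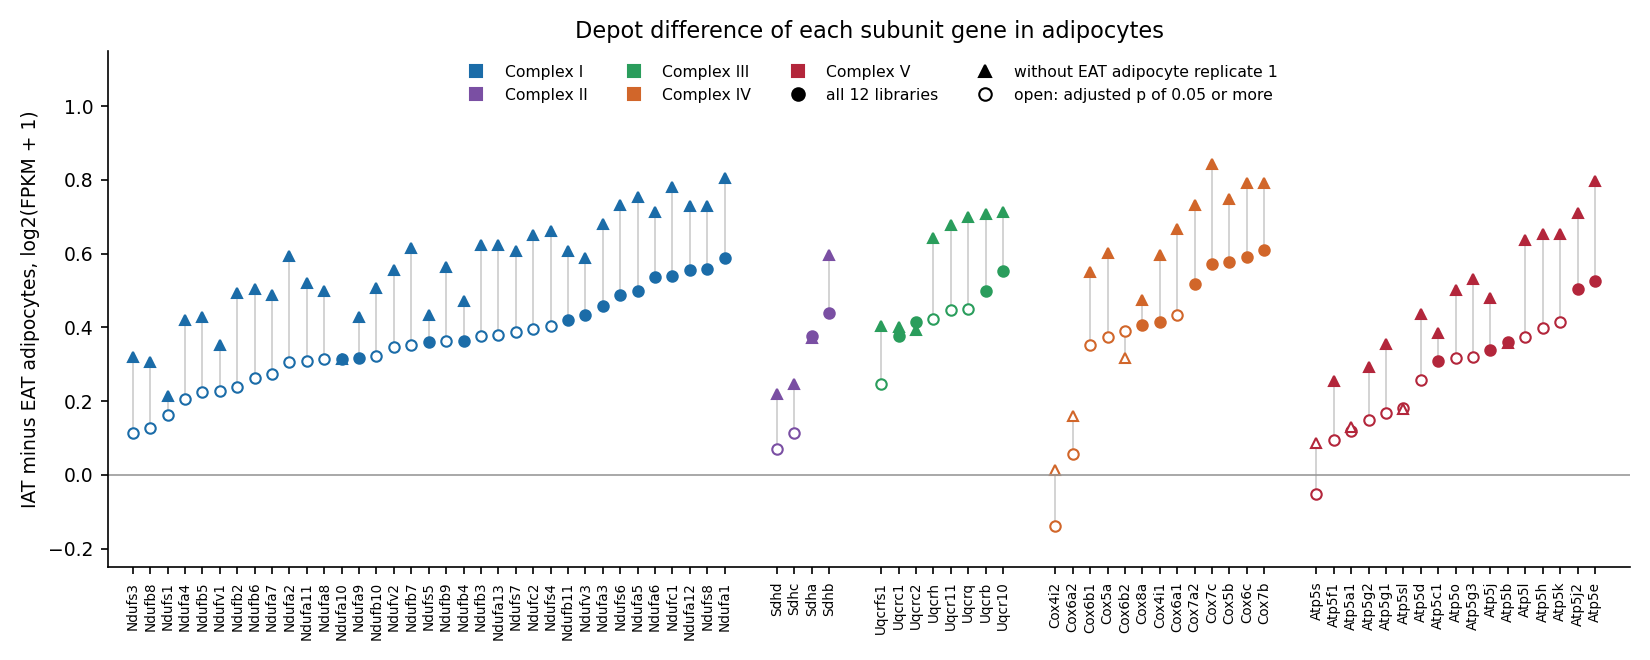
IAT minus EAT difference in adipocytes in log2(FPKM + 1) for 77 of the 78 tested members, grouped by complex, with circles for all 12 libraries, triangles without EAT adipocyte replicate 1 and filled symbols for an adjusted p under 0.05. Nearly all symbols lie above 0, and most triangles lie above their circle.

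In SVCs, 2 of 78 members were called higher in IAT and 0 lower (limma; 3 and 0 at an unadjusted p under 0.05), with a median difference of 0.08 that became -0.02 on TPM. Over all features tested, 14.0% were called higher and 26.2% lower, with a median of -0.06. The 2 members were Cox6a2 and Atp5sl, with Atp5sl at 0.45 ± 0.08 (limma, adjusted p = 6.92e-04). Without EAT adipocyte replicate 1, which leaves the SVC values themselves as they are and narrows the shared estimate of spread, 13 members were higher, beside 17.6% of all features. Ndufa3, an accessory subunit of complex I, is 1 of the 11 added, at 0.25 with an SE of 0.16 before and 0.09 after. Of 8 adipocyte markers, 7 were higher in IAT SVCs than in EAT SVCs and 0 lower. Their summed level was 6404 to 7234 FPKM in IAT SVCs and 4426 to 5204 in EAT SVCs. The part of adipocytes in the SVC values was not tested.

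Cox6a2, the subunit 6a isoform of heart and skeletal muscle (chr7:128205435-128206366), was at 3.10, 3.09 and 2.26 FPKM in IAT SVCs and 1.30, 0.572 and 0.623 in EAT SVCs. In adipocytes it was at 0.346, 0 and 0.177 in EAT and 0.669, 0.0670 and 0 in IAT. The IAT SVC libraries were thus the highest of all 12, and the depot difference in SVCs was 1.07 ± 0.20 (limma, adjusted p = 8.21e-04). Cox6a2 reached 1 FPKM only in these 3 libraries and in EAT SVC replicate 1, so it passed the filter on low values through the group where it is high, and its calls carry that condition. Without the filter the adjusted p of the SVC depot difference was 0.00692 (limma), and with a pseudocount of 0.1 the difference was 1.72 and did not pass the test (limma, adjusted p = 0.0644). Of 12 skeletal muscle markers, 10 were tested and all 10 were higher in IAT SVCs than in EAT SVCs. A marker can pass the filter on low values through IAT SVCs alone, so this count carries that condition. The summed level of the 12 was 137 to 165 FPKM in IAT SVCs and 14.0 to 15.8 in EAT SVCs, where 1 marker was at 0 throughout. In adipocytes it was 97.9 to 132 in EAT, where 2 markers were at 0 throughout, and 109 to 135 in IAT. The single markers did not go together in adipocytes. In EAT their median was 6.80% of the SVC level, with a range of 0% to 5314%. In IAT it was 3.16%, with a range of 1.02% to 540%. Between the SVC groups, the muscle creatine kinase Ckm, for instance, was at 12.9, 11.8 and 11.7 FPKM in IAT SVCs and at most 0.109 in EAT SVCs. All 6 T and B cell markers were also higher there, at 80.6 to 129 FPKM in sum against 16.2 to 20.0. The part of these cells in the Cox6a2 value was not tested.

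The depot difference was larger in adipocytes than in SVCs for 8 members and smaller for 1, by the interaction of depot and fraction, beside 14.7% of all features called in the first direction and 17.8% in the second. Among the 8 were Sdha (0.44 ± 0.09), Sdhb (0.49 ± 0.17), Uqcrc1 (0.53 ± 0.12), Uqcrc2 (0.30 ± 0.10), Cox7b (0.63 ± 0.19), and the complex I members Ndufa9 (0.36 ± 0.12) and Ndufa12 (0.53 ± 0.17). The 1 in the other direction was Cox6a2 (-1.02 ± 0.28), which entered the test through its IAT SVC values and whose call was lost without the filter (limma, adjusted p = 0.0550), on TPM (limma, adjusted p = 0.0627) and with a pseudocount of 0.1 (limma, adjusted p = 0.211). The smallest adjusted p was that of Sdha (limma, adjusted p = 0.00255) and the largest among the 9 that of Ndufa9 (limma, adjusted p = 0.0415). Without EAT adipocyte replicate 1, 57 members had the larger difference in adipocytes, beside 18.2% of all features, and the 8 were among them. The values were then 0.44 ± 0.08 for Sdha, 0.65 ± 0.10 for Sdhb, 0.55 ± 0.11 for Uqcrc1, 0.28 ± 0.09 for Uqcrc2, 0.81 ± 0.11 for Cox7b, 0.47 ± 0.07 for Ndufa9, 0.70 ± 0.10 for Ndufa12 and -0.91 ± 0.28 for Cox6a2. Leaving out 1 of 9 other libraries in turn lowered the number to between 2 and 5: EAT adipocyte replicate 3, IAT adipocyte replicates 1, 2 and 3, EAT SVC replicates 2 and 3, and IAT SVC replicates 1, 2 and 3. Of 8 adipocyte markers, 7 had the smaller depot difference in adipocytes and 0 the larger.

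Other genes of the pathway came from lists that were set up with earlier results of these data known. With all libraries, they went with the subunits between fractions and less evenly between depots. All 13 genes of the tricarboxylic acid cycle were higher in adipocytes of both depots, and 10 were higher in IAT than in EAT adipocytes and 0 lower, with a median of 0.39. Citrate synthase, Cs, stood at 172 ± 14.0 FPKM (SD, n = 3) in EAT and 227 ± 6.97 in IAT adipocytes, a difference of 0.40 ± 0.07 (limma, adjusted p = 8.64e-04). Of 44 assembly factors, which build the complexes and are not part of them, 41 were higher and 2 lower in EAT adipocytes, and 42 higher and 2 lower in IAT adipocytes. Between depots in adipocytes, 4 assembly factors were higher in IAT and 5 lower, with a median of 0.09. The shares of all features called were 10.3% higher and 27.3% lower in this contrast, and 31.1% and 52.7% between fractions in EAT and 29.8% and 53.9% in IAT. For the subunits the depot numbers were 33 and 0, and the 2 lists were not tested against each other. The list counts include EAT adipocyte replicate 1 and were not repeated without it. Summed FPKM of the assembly factors was 924 to 1298 in EAT adipocyte libraries and 1093 to 1200 in IAT adipocyte libraries, which overlap. Of 21 electron carriers and ubiquinone genes, 20 were higher and 1, Coq10b, lower in the adipocytes of each depot, and 6 were higher in IAT adipocytes, cytochrome c (Cycs) among them with 0.42 ± 0.12.

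A list of 9 genes holds subunits and relatives that the naming rule leaves out. Of these, 6 were higher in adipocytes of both depots and 3 were lower: Atpif1, the inhibitor of ATP synthase, Cox7a2l and Ndufa4l2. Ndufa4l2, a relative of Ndufa4 known from cells in low oxygen, went the way of Cox4i2, with -2.65 ± 0.19 in EAT and -2.60 ± 0.19 in IAT. Cyc1, the cytochrome of complex III, was higher in IAT adipocytes by 0.55 ± 0.08. Cox7a1 and Cox8b, isoforms known from muscle and brown fat, were higher there by 0.69 ± 0.22 and 3.11 ± 0.22.

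Regulators of these genes did not share 1 direction. Of 16 tested, 8 were higher and 6 lower in EAT adipocytes, and 9 higher and 6 lower in IAT adipocytes. Nrf1 and Gabpa, factors whose motifs were searched above, were lower in adipocytes, by -1.11 ± 0.08 and -0.82 ± 0.09 in EAT and -1.31 ± 0.08 and -0.63 ± 0.09 in IAT. Esrra, an estrogen-related receptor, was higher by 0.92 ± 0.09 and 1.30 ± 0.09. The coactivator Ppargc1a was at 0.933 ± 0.175 FPKM (SD, n = 3) in EAT and 1.70 ± 0.14 in IAT adipocytes, and at 0.110 ± 0.011 and 0.112 ± 0.037 in the SVCs. In adipocytes, Ppargc1a (0.48 ± 0.07), Ppargc1b (0.44 ± 0.11) and Ppard (0.40 ± 0.11) were higher in IAT and Yy1 (-0.30 ± 0.08) was lower. Ppargc1a averaged 1 FPKM or more only in IAT adipocytes, so it passed the filter through the group where it is high. With a scaling by median ratios the median of all features in the fraction contrasts rises from -0.31 in EAT and -0.34 in IAT to near 0. The sizes of the fraction differences are therefore relative to the deposited scale. Nrf1 and Gabpa lay further below 0 than these medians in both depots.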

How the data were processed

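RNA sequencing values of 12 mouse libraries were used. The values are FPKM that the authors deposited per gene, with confidence bounds, and TopHat, Cufflinks and the GRCm38 (mm10) build are named, with no version, in the submitters' processing notes. Settings, read length and annotation: not given in the sources used here. Cufflinks marked no member's estimate as failed, and 9 other features with such a mark were dropped from the 24890.

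The members and gene lists were chosen with earlier results of these data known. Values were taken as log2(FPKM + 1), and the 13175 features that reached 1 FPKM in 3 or more libraries were fitted with limma 3.58.1 in R 4.3.3 (4 group means, trended moderation, two-sided). A Benjamini-Hochberg adjusted p under 0.05 over all features of a contrast was called. Tables were joined by symbol and locus in Python 3.11.15 with pandas 2.3.3. The procedure was tested on simulated data.

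Members named in full were fixed core and isoform genes, the largest called member with separate groups per complex and direction, those against the common direction, up to 5 called in the interaction by smallest p, and those not tested. Ndufa9, Ndufa12, Sdhc, Sdhd, Ndufa3, Ndufa6, Ndufb11, Uqcrh, Atp5s and single genes of the lists were named after their values were seen. A member that the rule also names is counted in every fit and is not reported here. Transcript lengths are medians of full-length protein-coding transcripts in GENCODE vM21, found for all 80 members. They need not be those of the transcripts expressed here. Atp5g1 (2676 nt) and Ndufb2 (2413 nt) were shifted in EAT adipocyte replicate 1 by 0.56 and 0.77. The median shift of members from 1500 to 3000 nt was 0.21. Promoters came from RefSeq (GRCm38.p6). Alternatives covered the pseudocount, the filter, TPM and median-of-ratios scaling, the length trend, the groups fitted, a replicate block and leaving out each library.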

Additional observations from a re-analysis of the deposited data

Results flagged for a closer look

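Each of 8 members had a depot difference that differed between adipocytes and SVCs by the interaction test (limma, adjusted p under 0.05). With all libraries on the deposited scale, calls were no more frequent among the members than among all features, of which 14.7% were called higher and 17.8% lower. This depended on the processing. Without EAT adipocyte replicate 1, 73.1% of tested members were called higher, beside 18.2% of all features. On TPM these shares were 34.6% and 13.9%, and with the length trend removed 30.8% and 17.4%. With median-of-ratios scaling they were 8.97% and 15%. The difference between both depot differences, IAT minus EAT in adipocytes minus the same in SVCs, was 0.44 log2 units for Sdha, 0.49 for Sdhb, 0.53 for Uqcrc1, 0.30 for Uqcrc2, 0.63 for Cox7b, 0.36 for Ndufa9 and 0.53 for Ndufa12, and -1.02 for Cox6a2, which passed the filter on low values through the IAT SVC group where it is high. Both depot contrasts use the same fit, and EAT adipocyte replicate 1 lies above the other EAT adipocyte libraries in Sdhb, Uqcrc1, Cox7b, Ndufa9, Ndufa12 and Cox6a2. Groups of 3 libraries were not searched for single outlying values.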

How the results depend on the processing

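The 73 members called higher in adipocytes stayed at 73 when any 1 library was left out, in either depot, and those called lower ranged from 2 to 4 in EAT and stayed at 4 in IAT; without the filter on low values 5 were lower in EAT. The depot counts depended on the processing. Members called higher in IAT adipocytes numbered 52 on TPM, 53 with median-of-ratios scaling and 57 with the length trend removed. The shares of all features called higher were 9.09%, 16.1% and 17.0% in that order. Without the filter 18 members were higher, and 16 when the EAT and IAT adipocytes were fitted alone. The number of members ranged from 16 to 72 over the libraries left out, the highest being without EAT adipocyte replicate 1. In SVCs, members called higher numbered 1 with a pseudocount of 0.1 and 10 with the SVCs fitted alone, and ranged from 2 to 13. With median-of-ratios scaling they numbered 6 (7.69% of those tested), beside 18.7% of all features. With the length trend removed they numbered 11 (14.1%), beside 22.3%. Members called lower in SVCs numbered 1 without the filter, 2 on TPM, beside 30.5% of all features, and ranged from 0 to 1. In the interaction, members called higher numbered 27 on TPM, beside 13.9% of all features, and 24 with the length trend removed, beside 17.4%. The members called higher ranged in number from 2 to 57 over the libraries left out. Those called lower, 1 with all libraries, fell to 0 with a pseudocount of 0.1, without the filter and on TPM, and stayed at 1 when any 1 library was left out. The cause of these changes was not tested. A fit of the compared groups only gives no interaction.

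Alternatives that combine 2 choices were added after seeing the data. These left out EAT adipocyte replicate 1 and also removed the length trend or used median-of-ratios scaling. In that order, members called higher numbered 70 and 74 in adipocytes, 21 and 27 in SVCs and 51 and 60 in the interaction. In adipocytes these were 89.7% and 94.9% of tested members, beside 19.2% and 24.5% of all features. In SVCs they were 26.9% and 34.6%, beside 26.4% and 24.8%. In the interaction they were 65.4% and 76.9%, beside 19.9% and 20.7%. Signs that turned by more than 1 SD between replicates, or with a call on either side, were those of the complex I median of the SVC depot contrast on TPM (-0.0161), the complex II median of that contrast with median-of-ratios scaling (0.0573, and 0.0529 without EAT adipocyte replicate 1), and Atp5sl. Within 1 SD, the SVC depot median also turned on TPM for complex III (from 0.02 to -0.08) and complex IV (from 0.08 to -0.02), for complex III with the length trend removed (-0.03, and -0.02 without EAT adipocyte replicate 1) or without EAT SVC replicate 1 (-0.04) or IAT SVC replicate 1 (-0.01), and for complex II without IAT SVC replicate 3 (0.01). Atp5sl was at 0.33 in EAT and 0.11 in IAT with median-of-ratios scaling (0.32 and 0.12 without that library), and at 0.19 in EAT with the length trend removed (0.22 without that library). With median-of-ratios scaling, 5503 features were called higher and 5473 lower in EAT adipocytes against 4093 and 6948 as deposited, and 5471 and 5463 in IAT against 3921 and 7107.

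The labels do not say whether replicate numbers pair the libraries. Of 18 same-numbered pairs, 5 had a correlation of deviations above 0.1 (range -0.312 to 0.373). In all, 0 libraries correlated best with their own number in every other group. With 3 libraries per group, such correlations cannot exclude a pairing. With a replicate block, 33 members were higher and 0 lower in IAT adipocytes, 2 and 0 in IAT SVCs, 73 and 3 in EAT adipocytes against SVCs, 73 and 4 in IAT, and 7 and 1 in the interaction.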
